A study of Mus musculus with 4 samples.

Results

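The collagen genes are the members of the table whose symbol is Col, a number, the letter a and a number, as in Col1a1 or Col4a2. All 44 such symbols were taken from the 22564 protein-coding genes of the table. They were divided into 11 fibrillar collagen genes, 8 basement membrane collagen genes (the type IV chains with Col15a1 and Col18a1) and 25 other collagen genes. Transcripts had been measured by RNA sequencing in islets, the small endocrine organs scattered through the pancreas, from mice of strain 129sv at postnatal day 0. Of the 4 libraries, 2 were labelled Mettl3/14nKO and 2 Wild-Type, and the labels name no other allele or treatment in either group. Mettl3 and Mettl14 encode subunits of the enzyme that writes N6-methyladenosine on RNA, and RNA modification in islets is the subject of the series. The sources used here do not give the cells in which the genes were deleted, nor whether animals were pooled. Since no label ties the 2 libraries of a group to different animals, p-values take in no more than the spread of these 4 samples, and that spread may be technical.

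Collagens are secreted matrix proteins built from chains with long runs of a short repeat that opens with glycine. Fibrillar collagens such as types I, III and V form the fibres of connective tissue and are made mainly by fibroblasts, stellate cells and other mesenchymal cells. Type IV collagen forms the sheet-like network of basement membranes. In islets it lies around the blood vessels and is known to be made largely by endothelial cells and pericytes. Type VI collagen forms beaded filaments between the basement membrane and the fibres, while smaller families (FACIT, network-forming, transmembrane and anchoring collagens) decorate fibres or tie cells to them.

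The glycine repeat can be read in the genes themselves. In the GENCODE annotation of mm10, 48.6% of the 627 internal coding exons of the fibrillar collagen genes were exactly 54 bases long, and 83.9% had a length divisible by 9. The basement membrane collagen genes had 361 internal coding exons, of which 4.43% were 54 bases long and 45.2% were divisible by 9. For the other collagen genes these shares were 15.9% and 57.6%, and over the internal coding exons of all remaining protein-coding genes they were 0.444% and 13.7%. The fibrillar collagen genes thus had the most regular exon lengths of the groups. To show the repeat, the earliest in-frame internal coding exon of 54 bases is printed for 4 of the most abundant chains, with codons that begin GG, which encode glycine, in capitals:
Col1a1: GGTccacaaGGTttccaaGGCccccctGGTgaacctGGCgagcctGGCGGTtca
Col1a2: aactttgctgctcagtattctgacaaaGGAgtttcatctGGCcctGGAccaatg
Col3a1: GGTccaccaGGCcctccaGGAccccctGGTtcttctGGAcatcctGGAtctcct
Col4a1: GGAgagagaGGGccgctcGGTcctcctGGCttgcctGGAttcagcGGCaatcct
These are coding exon 8 of Col1a1 (chr11:94939904-94939957, plus strand), exon 6 of Col1a2 (chr6:4512361-4512414, plus strand), exon 6 of Col3a1 (chr1:45325360-45325413, plus strand) and exon 7 of Col4a1 (chr8:11245211-11245264, minus strand). In the exons of Col1a1, Col3a1 and Col4a1, glycine opened all 6 codon triplets. The Col1a2 exon had glycine at 2 of its 6 triplet starts. It was printed as the earliest of its length and does not describe the whole gene. Of the 50 internal coding exons of Col1a2, 24 were 54 bases long, and 90% had a length divisible by 9.

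The libraries were shallow, with 744016 to 1617429 fragments in genes, Mettl3/14nKO replicate 2 being the shallowest. A list of 12 islet endocrine markers summed to 60358 to 75623 CPM in Mettl3/14nKO and 97755 to 99797 CPM in wild-type (CPM is a library's fragments of a gene, scaled to a common total). In FPKM (the deposited level, scaled to transcript length and to depth) the insulin gene Ins2 stood at 31327 and 32698 against 71944 and 82684. The median log2 difference of all genes on the FPKM scale was -0.21, Mettl3/14nKO over wild-type. For the sum of the 12 endocrine markers the log2 ratio was -1.06 in FPKM and -0.54 in CPM. Of the targeted genes, Mettl3 had 30 and 9 fragments in Mettl3/14nKO against 20 and 47, and Mettl14 had 24 and 12 against 32 and 54. Neither passed the test (adjusted p = 0.849 and 0.308), so the test showed no loss of either and gives no check of the group labels. Their fragments were few, and why neither passed was not tested. In CPM Mettl14 was lower in Mettl3/14nKO without overlap, at 19.7 and 16.1 against 25.5 and 33.4 (edgeR unadjusted p = 0.0484). Mettl3 overlapped, at 24.7 and 12.1 against 15.9 and 29.1 CPM. In FPKM both genes were lower without overlap, as were 36.7% of all genes tested. Across all genes, edgeR called 230 genes higher and 176 lower in Mettl3/14nKO among 10956 tested, which is 2.1% and 1.61%. The verbs rose and fell below refer to this test, an adjusted p under 0.05 on fragments.

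In newborn wild-type islets the most abundant collagen transcript per length was the type IV chain Col4a1. In the Mettl3/14nKO libraries it was the type I chain Col1a1. Fibrillar genes were 5 of the 9 that rose in Mettl3/14nKO. Of the 5 basement membrane genes tested 0 passed in either direction, where 2.1% of all genes rose and 1.61% fell. With so few genes, a count of 0 is close to these shares and says little about the group. The difference between these gene groups was not itself tested. Collagen genes together took 1.47% and 1.13% of all fragments in the Mettl3/14nKO libraries against 0.977% and 0.691% in wild-type. Of the 26 members that passed the filter on low counts, 9 rose and 0 fell, where 2.1% of all genes tested rose. Col1a1, Col1a2, Col3a1, Col5a1, Col5a2, Col6a1, Col6a2, Col7a1 and Col12a1 were the members that rose. At an unadjusted p under 0.05 there were 13 of the 26, among them Col13a1, which was lower, beside 1747 of all 10956 genes tested. The median log2 fold change of the 26 was 0.67, beside 0.00 over all genes tested. The filter can pass a gene through its higher group alone, so this count and median are descriptions of the members with enough fragments. The remaining 18 members had between 0 and 33 fragments summed over the 4 libraries and were not tested with edgeR.

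**Figure D1:**
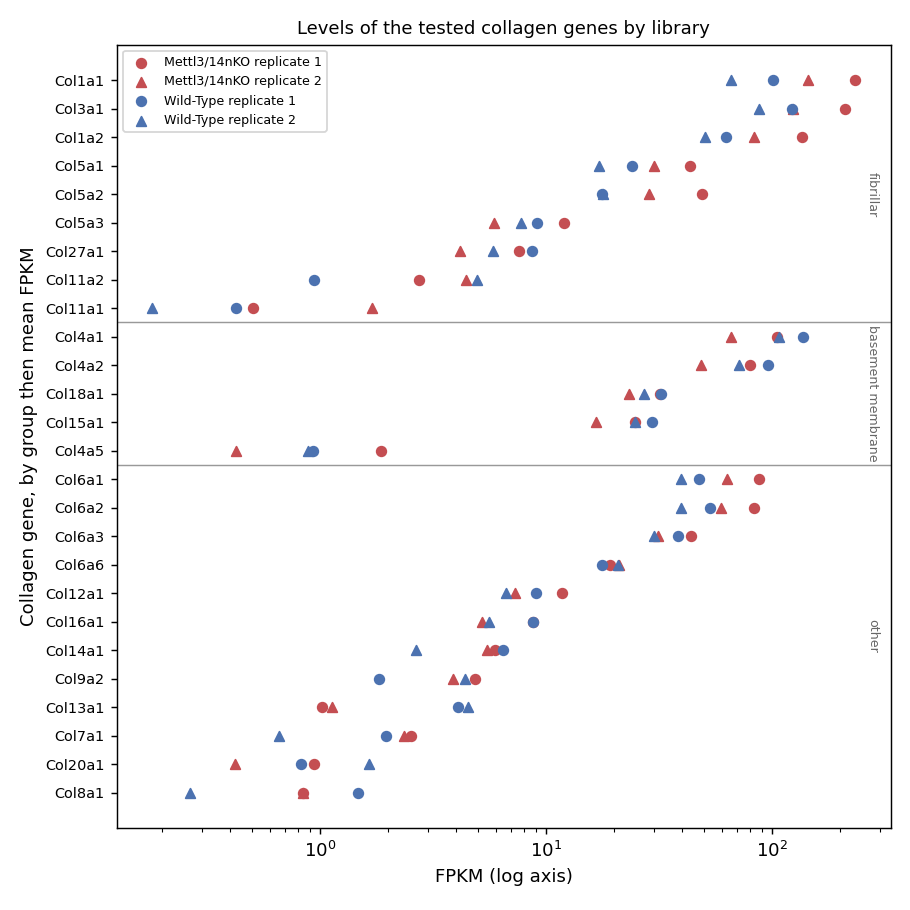
Deposited FPKM (log axis) of the 26 tested collagen genes, with 1 point for each library, by group and then by mean FPKM. The Mettl3/14nKO points of Col1a1, Col1a2, Col5a1 and Col5a2 lie to the right of both wild-type points, while those of Col4a1 and Col4a2 lie to the left or among them.

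The count depended on the test and on a library. DESeq2 called 6 of the collagen genes higher (0.685% of all genes it tested were higher and 0.368% lower), all of them among the 9, and did not call Col1a1 (adjusted p = 0.0779), Col3a1 (0.471) or Col12a1 (0.351). Limma on log2(FPKM + 1) called 0 collagen genes, and 0% of all 12213 genes tested, in either direction, with 7 collagen genes and 1477 genes in all at an unadjusted p under 0.05. The FPKM scale put the median of all genes at a log2 difference of -0.21, so a typical gene was lower in Mettl3/14nKO. Without wild-type replicate 2, edgeR called 2 collagen genes higher, Col1a1 and Col7a1, while without wild-type replicate 1 it called 11. A fit without 1 library leaves 1 library in that group, so its spread between libraries comes from the other group alone. Calls from such fits, here and below, are descriptions. All 9 genes that rose in the main test had positive log2 fold changes in each of the 14 settings tried. In CPM both Mettl3/14nKO libraries lay above both wild-type libraries for 15 of the 26 members and below them for 1, beside 22.6% of all genes above and 22.6% below. In FPKM these counts were 9 and 3, beside 9.36% of all genes above and 36.7% below.

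**Figure D2:**
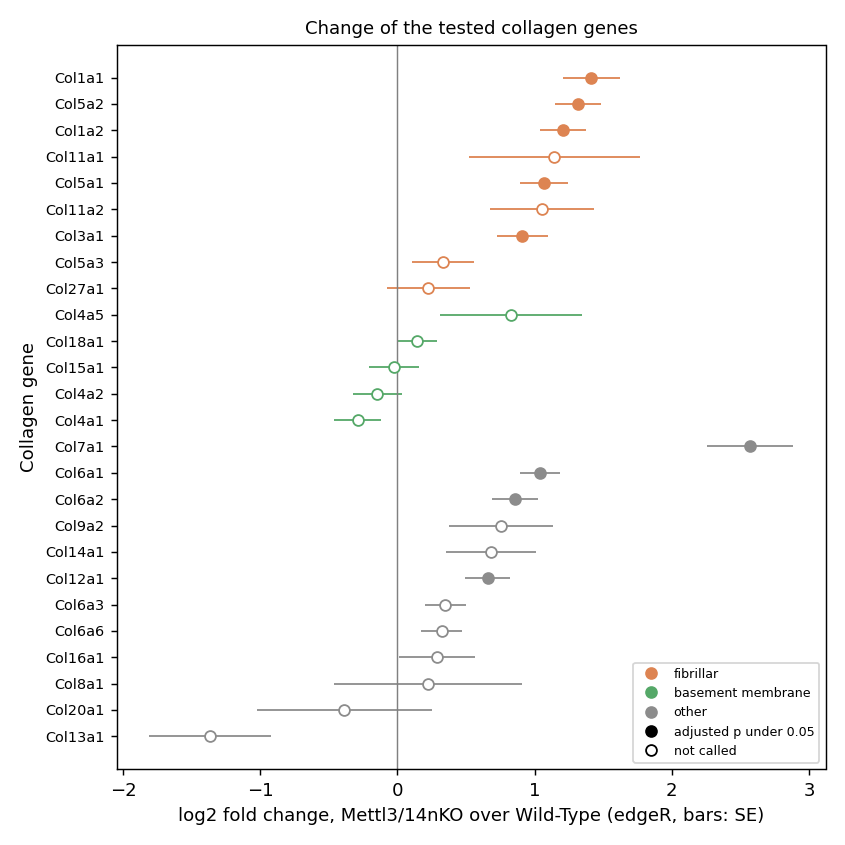
Log2 fold change of the 26 tested collagen genes, Mettl3/14nKO over wild-type, from edgeR on fragments, with bars of 1 SE. Filled points passed at an adjusted p under 0.05; in the fibrillar group these are Col1a1, Col5a2, Col1a2, Col5a1 and Col3a1, and in the basement membrane group there are 0.

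Among the fibrillar collagens, 5 of the 9 tested members rose and 0 fell, where 2.1% and 1.61% of all genes did. All 9 had positive log2 fold changes (median 1.07, beside 0.00 over all genes). The filter on low counts can pass a gene through its higher group alone, so the shared sign is a description. Without that filter, edgeR gave 9 positive and 2 negative values among all 11 members (median 1.04). Col1a1 (ENSMUSG00000001506, chr11:94936224-94953042) encodes the main chain of type I collagen, the bulk fibre protein of connective tissue. Its Mettl3/14nKO libraries had 233 and 143 FPKM, its wild-type libraries 101 and 65.9 FPKM. Both Mettl3/14nKO libraries lay above both wild-type libraries, and replicate 1 was the higher of its group each time. Its log2 fold change was 1.41 (SE 0.21, n = 2 per group, edgeR adjusted p = 0.00275), a 2.67-fold difference. Col1a2 (chr6:4504814-4541544), its partner chain, stood at 135 and 82.8 against 62.4 and 50.5 FPKM. The groups did not overlap, and Col1a2 rose by 1.21 on the log2 scale (SE 0.17, adjusted p = 0.00178).

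Col3a1 (chr1:45311538-45349706) encodes type III collagen, which mixes with type I in soft tissues. It stood at 209 and 123 FPKM in Mettl3/14nKO against 122 and 86.9 in wild-type, so that the lower Mettl3/14nKO library was barely above the higher wild-type one. In CPM the gap was wider, with 2413 and 1714 against 1310 and 879.8. Col3a1 rose by 0.91 (SE 0.19, adjusted p = 0.0185) and did not pass without wild-type replicate 2 (adjusted p = 0.261). Col5a1 and Col5a2 encode chains of type V collagen, which starts the assembly of type I fibres and limits their width. Col5a1 stood at 43.1 and 30.0 against 23.9 and 17.1 FPKM, and rose by 1.07 (SE 0.18, adjusted p = 0.00497). Col5a2 stood at 48.9 and 28.6 against 17.7 and 17.8 FPKM, and rose by 1.32 (SE 0.17, adjusted p = 0.000926). Neither overlapped between groups. Without wild-type replicate 2 the adjusted p was 0.0619 for Col1a2, 0.1 for Col5a1 and 0.0543 for Col5a2.

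The rarer fibrillar chains did not pass. Col5a3, a further type V chain, stood at 12.0 and 5.89 against 9.09 and 7.72 FPKM (log2 fold change 0.33, SE 0.23), and Col27a1, a fibrillar chain best known from cartilage, at 7.61 and 4.18 against 8.64 and 5.85 FPKM (0.23, SE 0.30). For both genes the wild-type values lay between the Mettl3/14nKO values or overlapped them. The type XI chains Col11a1 and Col11a2, known from cartilage, had 10 and 7 against 7 and 4 fragments, and 27 and 16 against 13 and 17 fragments. In CPM neither overlapped between groups, with log2 fold changes of 1.14 (SE 0.62) and 1.06 (SE 0.38) and adjusted p of 0.417 and 0.17. Col24a1 had 1 to 4 fragments in a library. Col2a1, the main collagen of cartilage, had 1 fragment in wild-type replicate 1 and 0 in the other libraries.

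Among the basement membrane collagens, 0 of the 5 tested members passed in either direction, where 2.1% of all genes rose and 1.61% fell. An unadjusted p under 0.05 was reached by 0 of them with edgeR or DESeq2. Over all genes 1747 of 10956 reached it with edgeR and 753 of 16077 with DESeq2. Col4a1 (ENSMUSG00000031502, chr8:11198423-11312826) and Col4a2 (ENSMUSG00000031503, chr8:11312805-11449287) encode the chains of the common type IV network. Col4a1 stood at 104 and 65.8 FPKM in Mettl3/14nKO against 137 and 106 in wild-type, the groups lying close without overlap. In CPM they overlapped, at 1463 and 1097 against 1829 and 1299, and the log2 fold change was -0.29 (SE 0.17, adjusted p = 0.47). Col4a2 stood at 79.7 and 48.3 against 95.9 and 71.5 FPKM, with overlap, and had a log2 fold change of -0.15 (SE 0.18, adjusted p = 0.785). The sign was positive when either Mettl3/14nKO replicate 2 (0.0528) or else wild-type replicate 1 (0.1415) was dropped.

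Col15a1 and Col18a1 encode the multiplexins, basement membrane collagens whose C-terminal fragments (restin and endostatin) are known to restrain vessel growth. Col15a1 stood at 24.7 and 16.5 against 29.5 and 24.7 FPKM, with a log2 fold change of -0.03 (SE 0.18, adjusted p = 0.973). Col18a1 stood at 31.8 and 23.3 against 32.1 and 27.0 FPKM, with 0.14 (SE 0.15, adjusted p = 0.734). In CPM both genes overlapped between groups. The rarer type IV chains, known from the kidney glomerulus and other specialised basement membranes, were sparse. Col4a5 had 31 and 5 fragments against 13 and 15, and its log2 fold change of 0.83 (SE 0.52, adjusted p = 0.505) turned to -0.52 without Mettl3/14nKO replicate 1. Col4a6 had 4 and 4 against 2 and 13 fragments, Col4a3 had 1 and 0 against 5 and 1, and Col4a4 had 0 and 0 against 3 and 1.

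Several collagen genes lie next to each other, and the type IV genes lie head to head. By GENCODE the start sites of Col4a1 and Col4a2 are 21 bases apart on opposite strands, so the genes overlap at their first bases. Col4a3 and Col4a4 start 72 bases apart, and Col4a5 and Col4a6 start 1309 bases apart. Col3a1 and Col5a2 lie on opposite strands of chromosome 1 with 24614 bases between them, and Col6a1 and Col6a2 follow each other on chromosome 10 at 85161 bases. The 2 members of each of the pairs Col3a1 and Col5a2, and Col6a1 and Col6a2, rose, while Col4a1 and Col4a2 did not pass. The promoter windows of this type IV pair are shown beside those of Col1a2 and Col3a1, fibrillar genes that rose, from 250 bases before to 50 bases after the start, from RefSeq on GRCm38.p6, the assembly called mm10. Capitals mark 3 motifs on either strand: the CCAAT box, the TATAAA box found before the start of many genes, and the GGGCGG sequence known as a GC box:
Col4a1: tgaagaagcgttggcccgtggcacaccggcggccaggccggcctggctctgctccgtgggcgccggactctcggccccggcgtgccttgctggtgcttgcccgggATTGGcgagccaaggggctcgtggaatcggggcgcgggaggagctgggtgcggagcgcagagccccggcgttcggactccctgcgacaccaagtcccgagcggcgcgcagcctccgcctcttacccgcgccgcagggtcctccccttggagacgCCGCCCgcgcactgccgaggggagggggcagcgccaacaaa
Col4a2: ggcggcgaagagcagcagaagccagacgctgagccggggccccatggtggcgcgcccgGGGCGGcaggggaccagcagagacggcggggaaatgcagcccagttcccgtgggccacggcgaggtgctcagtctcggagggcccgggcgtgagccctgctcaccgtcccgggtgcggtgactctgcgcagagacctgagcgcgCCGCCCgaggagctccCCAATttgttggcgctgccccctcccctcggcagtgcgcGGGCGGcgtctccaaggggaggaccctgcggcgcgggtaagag
Col1a2: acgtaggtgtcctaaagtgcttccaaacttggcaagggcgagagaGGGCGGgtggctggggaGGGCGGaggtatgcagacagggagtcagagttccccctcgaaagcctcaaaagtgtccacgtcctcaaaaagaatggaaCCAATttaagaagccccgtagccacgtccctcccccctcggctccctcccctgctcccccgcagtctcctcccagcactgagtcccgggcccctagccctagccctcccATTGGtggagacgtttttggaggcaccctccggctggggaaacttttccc
Col3a1: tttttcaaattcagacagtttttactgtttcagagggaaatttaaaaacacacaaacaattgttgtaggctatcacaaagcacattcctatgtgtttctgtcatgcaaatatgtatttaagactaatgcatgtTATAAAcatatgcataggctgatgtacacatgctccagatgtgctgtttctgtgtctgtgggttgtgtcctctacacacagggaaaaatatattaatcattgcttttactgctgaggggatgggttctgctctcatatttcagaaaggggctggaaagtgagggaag
The windows are chr8:11312777-11313076 (minus strand), chr8:11312555-11312854 (plus strand), chr6:4505368-4505667 (plus strand) and chr1:45311288-45311587 (plus strand). By GENCODE the gene Col1a2 begins at chr6:4504814, before its window, so RefSeq and GENCODE place its start at different sites. Which start was used in these islets was not tested. Of the 44 members, 35 had windows in that table, 38 windows in all. The CCAAT box was found in 13 of these and in 37.4% of the 32851 windows of all genes. The GC box was found in 23 and in 35.7%, and the TATAAA box in 5 and in 13.6%. The type IV windows were rich in G and C, at 74.0% and 73.7%, against 61.0% for Col1a2 and 37.7% for Col3a1. The TATAAA box was present in the Col3a1 window, 117 bases before its start, and in none of the other printed windows. For Col1a2 this absence covers only the printed window, whose start is not the GENCODE gene start. A match of letters is a description and not a binding site.

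Fibrillar genes took 57.5% and 54.5% of collagen fragments in Mettl3/14nKO against 40.7% and 38.6% in wild-type. Basement membrane genes took 21.5% and 21% against 37.5% and 37.7%. For both shares the groups were farther apart than the libraries of a group. The other collagens held 21% and 24.4% against 21.8% and 23.7%, with overlap. In CPM the fibrillar sum was 8476 and 6173 against 3974 and 2668, a 2.21-fold difference of the means. The basement membrane sum was 3169 and 2382 against 3667 and 2608, a ratio of 0.885, and the groups overlapped. These sums rest on members already described and carry no test of their own.

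**Figure D3:**
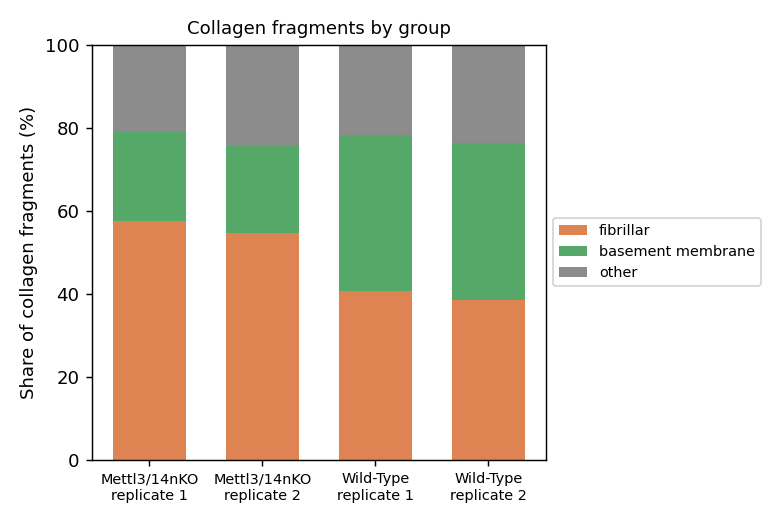
Share of the fragments of all 44 collagen genes that fell to the fibrillar, basement membrane and other groups, with 1 bar for each library. The fibrillar share was 57.5% and 54.5% in Mettl3/14nKO against 40.7% and 38.6% in wild-type.

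The other collagens were uneven. Type VI collagen, the most abundant of them, is built from Col6a1, Col6a2 and a longer chain such as Col6a3 or Col6a6. Col6a1 (chr10:76708792-76726168) stood at 87.6 and 63.1 FPKM in Mettl3/14nKO against 47.4 and 39.3 in wild-type, without overlap, and rose by 1.04 (SE 0.15, adjusted p = 0.00228). Col6a2 (chr10:76595762-76623630) stood at 82.6 and 59.4 against 52.8 and 39.5 FPKM, also without overlap, and rose by 0.86 (SE 0.17, adjusted p = 0.0129). Col6a3 stood at 43.5 and 31.2 against 38.2 and 30.0 FPKM, with overlap, and did not pass (0.35, SE 0.15, adjusted p = 0.274). Without wild-type replicate 1 its log2 fold change was 0.59. Col6a6 stood at 19.1 and 21.1 against 17.6 and 20.7 FPKM and did not pass (0.32, SE 0.15, adjusted p = 0.313). Without wild-type replicate 2, Col6a1 and Col6a2 had adjusted p of 0.0689 and 0.228. Col6a4 and Col6a5, which are further long chains, had 4 to 11 and 0 to 3 fragments in a library.

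Col7a1 (chr9:108953586-108984875) forms the anchoring fibrils under epithelia and had the highest log2 fold change of the collagen genes tested. Fragments numbered 61 and 41 in Mettl3/14nKO against 11 and 14, or 50.1 and 55.1 against 8.76 and 8.66 CPM. It rose by 2.57 (SE 0.32, adjusted p = 0.00088), a 5.94-fold difference in fragments. With 1 library left out its log2 fold change ranged from 2.50 to 2.66. In the deposited FPKM the difference was smaller, at 2.54 and 2.36 against 1.96 and 0.656. The FPKM assigned to 1 fragment of Col7a1 was 0.178 in wild-type replicate 1 and 0.0416, 0.0575 and 0.0469 in Mettl3/14nKO replicates 1 and 2 and wild-type replicate 2. The wild-type FPKM of this gene therefore rest on unequal conversions, and limma gave a log2 fold change of 0.64 (adjusted p = 0.568).

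The FACIT collagens attach to the surface of fibres. Col12a1 stood at 11.8 and 7.26 FPKM against 9.01 and 6.62, with overlap, and at 239 and 198 against 158 and 122 CPM, without overlap. It rose by 0.66 (SE 0.16, adjusted p = 0.0423), the weakest of the 9 calls, which ended without Mettl3/14nKO replicate 1 (adjusted p = 0.218), without wild-type replicate 2 (0.478) and on the rounded estimated counts (0.0535). Col14a1 stood at 5.96 and 5.46 against 6.43 and 2.67 FPKM (0.68, SE 0.33, adjusted p = 0.345). Without wild-type replicate 1 its log2 fold change was 1.48. Col16a1 stood at 8.74 and 5.19 against 8.75 and 5.62 FPKM (0.29, SE 0.27). Col9a2, a chain of cartilage type IX collagen, stood at 4.84 and 3.86 against 1.83 and 4.39 FPKM (0.75, SE 0.38), and Col20a1 at 0.943 and 0.423 against 0.826 and 1.64 FPKM (-0.39, SE 0.64). None of these 4 passed in the full set of libraries.

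The transmembrane collagen Col13a1, which sits in the cell membrane at adhesion sites, had the most negative edgeR log2 fold change of the 26 collagen genes tested. It had 8 and 6 fragments in Mettl3/14nKO against 26 and 27 in wild-type, and 1.02 and 1.13 against 4.07 and 4.51 FPKM. The groups did not overlap on either scale, but the change of -1.37 (SE 0.44) did not pass (adjusted p = 0.124, unadjusted p = 0.0088). The network collagen Col8a1, known from vessels and the eye, stood at 0.843 and 0.843 against 1.48 and 0.265 FPKM (0.23, SE 0.69). Members too sparse to be tested were Col8a2, Col9a3, Col10a1, Col17a1, Col19a1, Col22a1, Col23a1, Col25a1, Col26a1 and Col28a1, with at most 17 fragments in a library. Col9a1 had 0 fragments in every library, where the level of 3 fragments that a count of 0 allows was 1.85 to 4.03 CPM.

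Ratios between chains within a library do not depend on depth. The pairs were chosen with the levels known and are given as descriptions. Col1a1 over Col4a1 in FPKM was 2.23 and 2.18 in Mettl3/14nKO against 0.735 and 0.619 in wild-type. Col1a2 over Col4a2 was 1.70 and 1.71 against 0.651 and 0.706. Both ratios were above 1 in each Mettl3/14nKO library and below 1 in each wild-type library. Between the type I partners, Col1a1 over Col1a2 was 1.72 and 1.73 against 1.61 and 1.30, and within the type IV pair, Col4a1 over Col4a2 was 1.31 and 1.36 against 1.43 and 1.49, and these shifts were smaller. Col3a1 over Col1a1 was 0.897 and 0.861 against 1.22 and 1.32, and the 2 genes changed places. Col6a3 over Col6a1 was 0.497 and 0.495 against 0.806 and 0.762, a shift within type VI collagen. Col5a1 over Col5a2 was 0.881 and 1.05 against 1.35 and 0.96, with overlap.

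**Figure D4:**
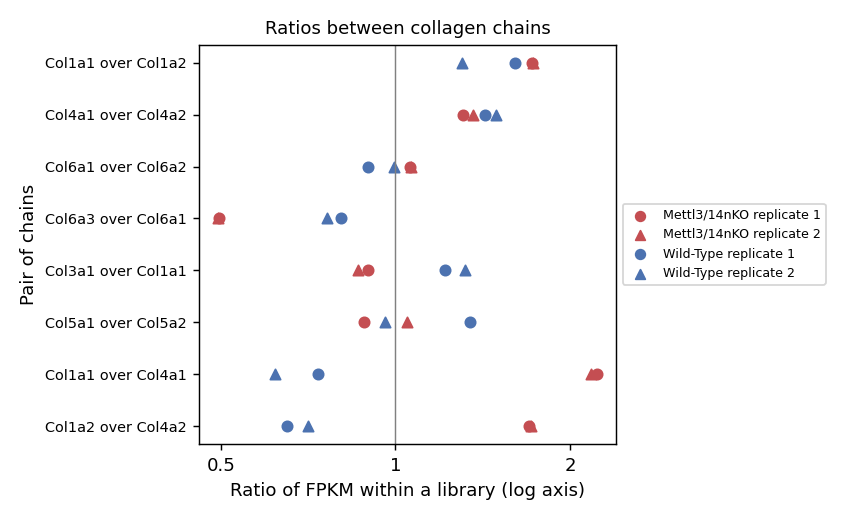
Ratio of the FPKM of 2 collagen chains within each library (log axis), for 8 pairs, with 1 point for each library. Col1a1 over Col4a1 was 2.23 and 2.18 in Mettl3/14nKO against 0.735 and 0.619 in wild-type, while Col5a1 over Col5a2 overlapped.

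In the order of FPKM among the 44 members, Col4a1 ranked 1 in both wild-type libraries and 4 in both Mettl3/14nKO libraries. Col1a1 ranked 3 and 4 in wild-type and 1 in both Mettl3/14nKO libraries. Col3a1 ranked 2 in every library, and Col4a2 went from ranks 4 and 3 to 7. Neighbours in this order were close: in wild-type replicate 1, Col4a1 and Col3a1 differed by 137 against 122 FPKM, less than the gap between the wild-type libraries for either gene. By mean FPKM over all libraries 13 members were at 10 or more, 11 between 1 and 10, and 20 below 1.

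Markers of the cells known to make these collagens also differed between the groups. In bulk tissue fewer cells of a type and less RNA per cell cannot be told apart. Of 24 mesenchymal and stellate markers without collagens, 19 were tested, of which 5 rose and 0 fell (2.1% and 1.61% of all genes), and their sum was 3079 to 4286 CPM in Mettl3/14nKO and 1896 to 2800 in wild-type. The count that rose was 3 with DESeq2. It was 14 and 1 when wild-type replicate 1 or 2 was dropped, and 2 and 11 when Mettl3/14nKO replicate 1 or 2 was dropped. Of 15 endothelial markers, 8 fell and 0 rose, with sums of 352 to 543 against 1210 to 1489 CPM. Of the 12 islet endocrine markers, Iapp, Ins1, Ins2 and Ppy fell and 0 rose, and the sums given above did not overlap between groups. With 1 library left out, 2 to 7 of them fell and 0 to 1 rose. Schwann and glial markers summed to 156 to 181 against 89.2 to 95.8 CPM, and 2 of the 5 tested rose. Leukocyte markers summed to 354 to 638 against 53.4 to 117 CPM, and 6 of the 12 tested rose. With DESeq2 these counts were 0 and 2. Duct markers summed to 736 to 790 against 886 to 951 CPM, but their members were mixed. Of the 7 tested, Muc1 and Spp1 rose and Epcam and Krt7 fell, with a median log2 fold change of 0.22. Acinar markers summed to 36.2 to 75.3 against 66.9 to 73.0 CPM, and 0 of the 2 tested passed. None of the markers was at 0 in all libraries. The part of these cells in the collagen differences was not tested. Fibrillar genes over mesenchymal markers, as summed CPM, gave 1.98 and 2.0 in Mettl3/14nKO against 1.42 and 1.41 in wild-type, and type VI genes over the same markers gave 0.596 and 0.753 against 0.626 and 0.720. Col4a1 and Col4a2 together, over endothelial markers, gave 4.70 and 5.34 against 2.05 and 1.78. Over mesenchymal markers the same pair gave 0.596 and 0.611 against 1.09 and 1.13, the opposite direction. The ratio of fibrillar genes to mesenchymal markers did not overlap between groups, and that of type VI genes did. These ratios are descriptions and were not tested.

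A chosen list held 38 genes that make, modify or cross-link collagen, and 34 of them were in the table. Of these 27 were tested, of which 2 rose and 1 fell, where 2.1% and 1.61% of all genes did, with a median log2 fold change of 0.22 beside 0.00 over all genes. Lox, the lysyl oxidase that cross-links fibres, stood at 24.0 and 9.44 FPKM against 8.26 and 7.35 and rose by 1.34 (SE 0.26, adjusted p = 0.0133). Ppib, a prolyl isomerase of the endoplasmic reticulum needed for collagen folding, rose by 0.73 (SE 0.17, adjusted p = 0.0336), although its FPKM of 106 and 69.5 overlapped the wild-type 54.1 and 73.4. Bmp1, the protease that trims the C-terminal propeptide of fibrillar collagens, fell by 0.97 (SE 0.16, adjusted p = 0.00497), with 12.4 and 8.75 against 22.1 and 27.3 FPKM. It was thus lower while its substrates Col1a1, Col1a2 and Col3a1 were higher. Serpinh1, the collagen chaperone HSP47, stood at 114 and 57.9 against 63.4 and 62.7 FPKM and missed the threshold (0.69, SE 0.18, adjusted p = 0.0539), with calls in 5 other settings. Lox and Ppib did not pass without Mettl3/14nKO replicate 1 (0.179 and 0.242), nor without wild-type replicate 2 (0.246 and 0.182), nor Ppib with DESeq2 (0.363), without wild-type replicate 1 (0.168) or with the replicate number as a block (0.0537), and Bmp1 did not pass without wild-type replicate 2 (0.144). The number of these genes that rose ranged from 0 to 9 when 1 library was left out.

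Of 9 tested collagen receptor genes, 1 rose and 1 fell, where 2.1% and 1.61% of all genes did. Their median log2 fold change was -0.15, beside 0.00 over all genes. Mrc2, an endocytic receptor that takes up collagen fragments, rose by 1.31 (SE 0.29, adjusted p = 0.0259), at 6.14 and 3.77 against 3.32 and 1.63 FPKM. Cd44, a hyaluronan receptor that also binds collagen, fell by 0.71 (SE 0.15, adjusted p = 0.0228), with 16.0 and 16.8 against 29.7 and 32.7 FPKM. Cd93, a receptor of endothelial and myeloid cells, stood at a log2 difference of -0.43 (adjusted p = 0.234) and Itga2, a collagen-binding integrin subunit, of -0.88 (0.256), and neither passed. Mrc2 and Cd44 were not called with DESeq2 (adjusted p = 0.295 and 0.233), without Mettl3/14nKO replicate 1 (0.0744 and 0.175) or without wild-type replicate 2 (0.302 and 0.237).

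Of 19 tested genes of the matrix that binds collagen, 5 rose and 1 fell, where 2.1% and 1.61% of all genes did. Their median log2 fold change was 0.82, beside 0.00 over all genes. Fn1, which encodes fibronectin, rose by 1.43 (SE 0.17, adjusted p = 0.00087), at 120 and 64.2 against 37.4 and 42.4 FPKM. Bgn, a small proteoglycan on collagen fibres, rose by 1.36 (SE 0.17, adjusted p = 0.000963), at 163 and 100.2 against 67.3 and 53.7 FPKM, both without overlap. Emilin1, of elastic fibres, rose by 0.91 (adjusted p = 0.0286), at 20.03 and 10.004 against 9.20 and 8.67 FPKM. Dcn, the fibre-binding proteoglycan decorin, rose by 0.88 (adjusted p = 0.0388), at 51.2 and 26.1 against 26.7 and 23.5 FPKM. Sparc, a matrix protein that binds collagen, rose by 0.82 (adjusted p = 0.0433), at 307 and 158 against 174 and 134 FPKM. In FPKM, Dcn and Sparc overlapped between groups. Thbs1, which encodes the matrix protein thrombospondin, fell by 0.93 (adjusted p = 0.0305), with 28.5 and 15.6 against 58.4 and 41.4 FPKM. Bgn and Dcn are also among the mesenchymal markers. With DESeq2 only Fn1 and Bgn of these 6 passed. Emilin1, Dcn and Sparc did not pass when Mettl3/14nKO replicate 1 was absent (0.308, 0.405 and 0.243), nor when wild-type replicate 2 was (0.327, 0.429 and 0.453), and the number that rose ranged from 2 to 13 when 1 library was left out.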

How the data were processed

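RNA of newborn mouse islets was sequenced in 4 libraries, 2 per group, with groups and replicate numbers from the sample titles. Per the labels, total RNA depleted of ribosomal RNA went into directional, paired-end libraries. Cutadapt 1.9.3, HISAT2 2.0.4, Cuffdiff, Cufflinks and mm10 are named in the submitters' processing notes. The annotation release and the strand setting of the counting are not stated in the sources used here. By GENCODE, 5 of the 26 tested collagen genes have exons that overlap a gene on the opposite strand and 3 a gene on the same strand, and fragments of such genes may be shared.

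The FPKM values are as deposited. The estimated counts, also deposited by the authors, are not whole, but 92.3 to 93.2% of those above 0 lay within 0.01 of a whole multiple of 1 step per library (0.968, 1.33, 0.982 and 0.835). They were divided by the step and rounded to fragments, and genes of 1 symbol were summed. The main test was edgeR 4.0.16 (quasi-likelihood, TMM factors, filterByExpr) in R 4.3.3 over all genes, two-sided, with Benjamini-Hochberg adjustment at 0.05. DESeq2 1.42.0 and limma 3.58.1 on log2(FPKM + 1), where the mean FPKM was 1 or more, were alternatives, beside other scalings, filters and leaving out each library. The SE is the log2 fold change divided by the root of edgeR's F. Scripts were tested on simulated fragments. With 2 libraries against 2 an exact permutation test cannot go below p = 0.333, so values with no fit across genes have no p. Libraries of 1 group varied beyond counting noise (chi-square over its degrees of freedom 2.30 and 2.29). The labels name no batch. Every collagen gene was accounted for, and in the 3 lists of related genes those called and the 4 with the smallest p are named. Members, lists and tests were chosen with earlier results of these data known.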

Additional observations from a re-analysis of the deposited data

How the results depend on the processing

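No paired analysis was planned as the main result, since equal replicate numbers are not said to share an animal or a day. Deviations of libraries with the same number had a correlation of 0.05 over genes. With the replicate number as a block 9 collagen genes were higher, and 215 genes were higher and 166 lower in all. Limma on FPKM, with a pseudocount of 1 or 0.1 or without a filter, called 0 genes in every count given (all, collagen, fibrillar, other, biosynthesis, receptor and matrix, higher or lower). DESeq2 called 93 genes higher and 50 lower, 3 fibrillar collagens and 1 biosynthesis gene higher, 0 receptor genes in either direction, and 2 matrix genes higher and 0 lower. Without a filter on low counts edgeR called 469 higher and 388 lower, with 8 biosynthesis and 12 matrix genes higher and 2 matrix genes lower. On the rounded estimated counts 3 matrix genes were higher. Leaving out 1 library gave 44 to 390 genes higher and 31 to 285 lower, 2 to 11 collagen, 1 to 5 fibrillar and 1 to 6 other collagens higher, 0 to 9 biosynthesis genes higher and 0 to 1 lower, 0 to 1 receptor genes higher and 0 to 1 lower, and 2 to 13 matrix genes higher and 1 to 3 lower. The lowest counts of all and of collagen genes came without wild-type replicate 2, the deepest library. The cause was not tested.

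Signs turned for 9 genes, none of them called in the setting. When 1 library was left out, the log2 fold change ranged from -0.395 to 0.14 for Col4a2, from -0.52 to 1.36 for Col4a5, from -0.12 to 0.62 for Col5a3, from -0.64 to 1.94 for Col8a1, from -0.30 to 0.28 for Col15a1, from -0.0465 to 0.656 for Col16a1, from -0.0213 to 0.30 for Col18a1, from -0.23 to 0.71 for Col27a1 and from -0.91 to 0.26 for Mettl3. With limma at a pseudocount of 1, with and without a filter, it was -0.0493 for Col16a1, -0.11 for Col18a1 and -0.28 for Col27a1, and at 0.1 it was -0.0573, -0.11 and -0.33. Summed FPKM in place of CPM, and type IV chains in place of all basement membrane members, moved the log2 ratio of the group sums by less than the spread between replicates. Depth limited the comparison of the rarest members, and 18 did not pass the filter on low counts.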

Other observations

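The deposited FPKM and the fragments behind them disagreed for a few rare collagens. Col28a1, a collagen of Schwann cell basement membranes in the mouse, had fragment counts of 14 and 6 (Mettl3/14nKO) against 8 and 5 (wild-type), but 10.4 and 0.77 against 0.76 and 0.404 FPKM. Its FPKM for 1 fragment was 0.739 in Mettl3/14nKO replicate 1 and 0.0808 to 0.128 in the other libraries. For Col11a2 the same value was 0.101 and 0.277 in Mettl3/14nKO against 0.0727 and 0.291. For the abundant Col6a1 it was 0.0965 and 0.133 against 0.0981 and 0.0835. The cause was not tested.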
